A study of Mus musculus with 60 samples.

Results

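The comparison described here is between tailbuds of mutant and wild-type mouse embryos that had 12, 13 or 14 somites. Embryos were chosen by the genotype and somite number in their sample titles, which gave 6 mutants (2 at each somite number) and 12 wild-type embryos (4 at each). These 18 libraries are part of 27 tailbud RNA sequencing libraries in a series of 60 samples, the others being chromatin libraries of mouse embryonic stem cells, not analysed here. The wild-type embryos are labelled WT and the mutants MUT, and the design text of the series gives the mutation of the embryos as JARID2 K116R. The labels do not say whether the mutants were heterozygous or homozygous, and give no strain, litter, sex or age beyond the somite number. Each library is total RNA from the tailbud of a single embryo. In such bulk RNA, fewer cells of a type and less RNA per cell cannot be told apart.

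JARID2 belongs to the accessory proteins of PRC2, the Polycomb complex that methylates lysine 27 of histone H3 and helps keep developmental regulators silent. JARID2 is itself methylated by PRC2 at the lysine that is replaced in these mutants, and this methylated residue can bind the subunit EED and stimulate the enzyme. The tailbud holds the progenitors that extend the body axis, and from their descendants new somites are formed one pair after another, so somite number is a close measure of developmental age.

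The deposited tables list reads per Ensembl transcript and pair no transcript with a gene, and the tables of gene names used here matched 0 of the 117135 transcripts. Values are therefore given per transcript. The expression of Jarid2, the Hox clusters and other Polycomb targets, and the markers that would check the labelled tissue, were not analysed here. For the same reason no sequence is shown.

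The total of estimated reads per library was between 22897290 and 26669961 in wild type and between 24556167 and 27090684 in mutants. In an exact permutation test within somite numbers (3375 assignments, two-sided), 7 measures of the libraries gave unadjusted p from 0.0741 to 0.423 and Benjamini-Hochberg adjusted p from 0.269 to 0.423. For 1 of the 7, the mean correlation of an embryo with its group (p = 0.0767 in that test), the 2 mutants of a somite number share 1 value. Wild-type values average over several partners, so this p does not compare like values. The smallest p of the 7 belonged to the share of reads in the 100 most abundant transcripts, which was 24.2% ± 2.06 (SD, n = 6) in mutants and 22.6% ± 1.56 (SD, n = 12) in wild type. The library of wild-type embryo 4 at 14 somites differed from the others of its group in the share of reads in transcripts too low to test, 0.281%, and it had the highest slope of levels on transcript length, given below beside the results it touches. Across 24308 transcripts averaging 1 CPM or more (reads of a transcript per 1000000 reads of the library), 2 mutants of one somite number had a Pearson r of 0.869 to 0.882 on the log2 scale (3 pairs). A mutant and a wild-type embryo of one somite number had a median r of 0.874 (24 pairs, 0.843 to 0.893), and 2 wild-type embryos one of 0.873 (18 pairs, 0.821 to 0.893), so the ranges of the 3 kinds of pair overlapped.

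The main question was which transcripts had another level in mutant than in wild-type tailbuds at 12 to 14 somites, with somite number as a factor. With edgeR's quasi-likelihood test, 0 of 43328 transcripts tested (0%) had an adjusted p (Benjamini-Hochberg) under 0.05, and the smallest adjusted p was 0.134. Before adjustment 2282 transcripts had a p under 0.05, where 2166 would be expected if none differed. Of these, 934 (2.16% of those tested) were higher in mutants and 1348 (3.11%) were lower. DESeq2 called 125 transcripts, 28 of them higher in mutants, and limma voom with quality weights called 4, of which 3 were higher. Without wild-type embryo 4 at 14 somites edgeR called 1 transcript, and in each of the other 17 fits that left out an embryo it called 0. Where a mutant was left out the filter was looser, and 48897 to 49239 transcripts were tested.

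**Figure D1:**
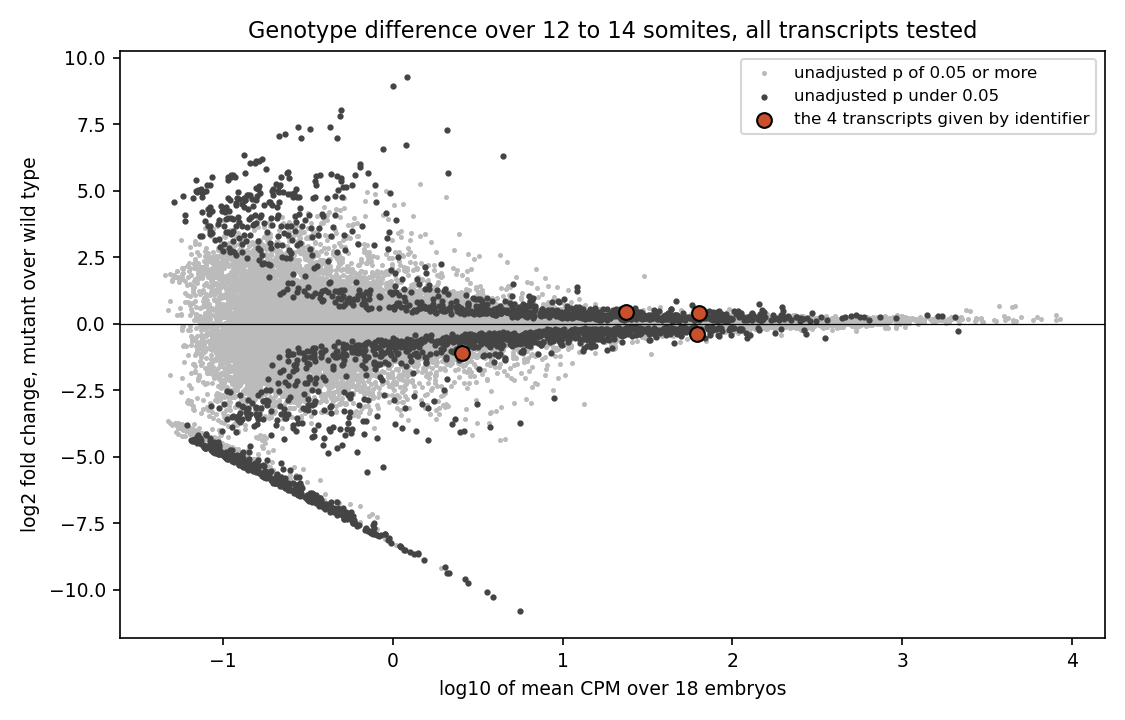
Each point is 1 of the 43328 transcripts tested, with the log10 of its mean CPM over the 18 embryos on the horizontal axis and the fitted log2 fold change of mutant over wild type on the vertical axis. Black points had an unadjusted p under 0.05 in edgeR, none passed the adjustment there, and the straight lower edge at low CPM is made of transcripts at 0 in all 6 mutants, whose fitted change depends on the model and is no measured fold.

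The excess of lower over higher transcripts was largest among low ones, with 314 higher and 610 lower under a mean of 1 CPM and 243 higher and 409 lower at 1 to 10 CPM. At 10 to 100 CPM 304 were higher and 311 lower, and at 100 CPM or more the direction turned, with 73 higher and 18 lower. Of the transcripts tested, 674 had 0 reads in all 6 mutants, and 358 of these had an unadjusted p under 0.05. In the other direction 48 had 0 reads in all 12 wild-type embryos, and all 48 had a p under 0.05. Transcripts of either kind passed the filter only through the genotype that had reads. The share of them with a low p is therefore no support for a difference. The groups are of unequal size, and a read count of 0 in all 6 embryos and one in all 12 are not the same event. Apart from both kinds, 886 were higher and 990 lower at that threshold. The split also moved with the scaling and the tool: 40.9% of the 2282 transcripts were higher in mutants, against 19.2% with library totals only, 19.4% in limma on log2(TPM + 1) and 60.2% in limma voom. In a fit of all 27 embryos it was 29.6%.

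How large a difference these embryos leave room for depended on abundance. Among 1757 transcripts with a mean of 100 CPM or more, the median half-width of the 95% interval of the log2 fold change was 0.20, and for 99.3% the whole interval lay within 1 log2 unit of 0, a 2-fold change. For 90.3% it lay within 0.5 log2 units. A 2-fold change was thus outside the interval for nearly all abundant transcripts.

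At 10 to 100 CPM, with 8145 transcripts, the median half-width was 0.23, and 96.6% of the intervals lay within 1 unit. At 1 to 10 CPM, with 14406 transcripts, it was 0.58, and 62.0% lay within 1 unit. Below 1 CPM, with 19020 transcripts, the median half-width was 2.03, and 7.12% lay within 1 unit, so for most such transcripts the interval reached beyond a 2-fold change. The intervals cover the spread between embryos as edgeR fits it and are not adjusted for the number of transcripts.

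**Figure D2:**
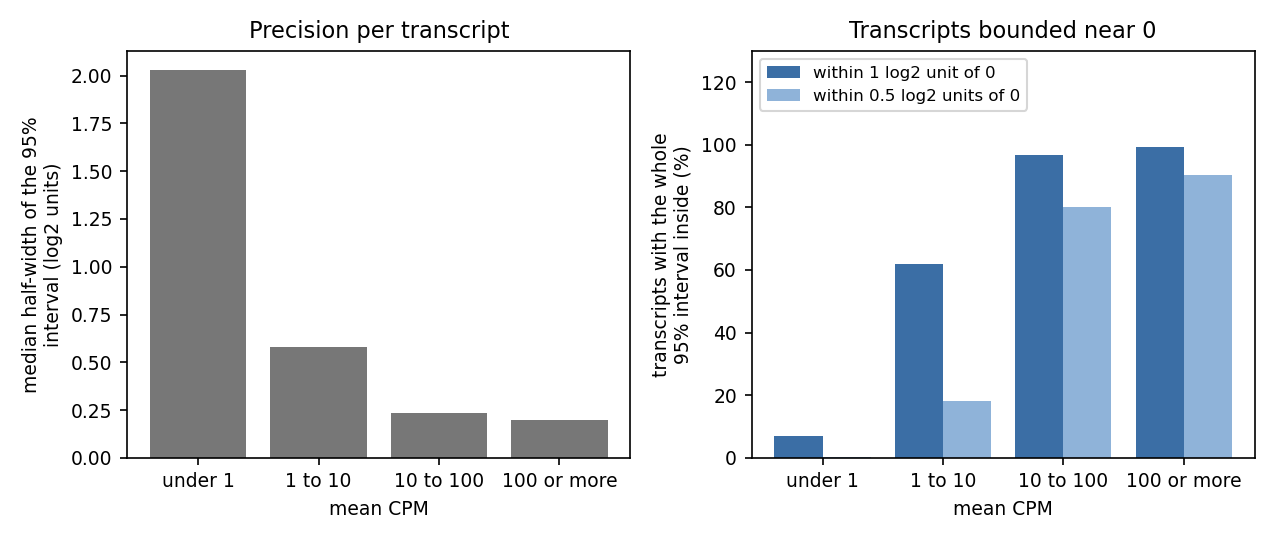
The left panel gives the median half-width of the 95% interval of the log2 fold change, mutant over wild type, in 4 classes of mean CPM. The right panel gives the percentage of transcripts in each class whose whole interval lay within 1 (dark) or 0.5 (light) log2 units of 0, from 7.12% and 0.121% under 1 CPM to 99.3% and 90.3% at 100 CPM or more.

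Fitted changes of more than 1 log2 unit were rare where precision was good. No transcript with a mean of 100 CPM or more had one, and 12 of the 8145 at 10 to 100 CPM did, 3 of them with an unadjusted p under 0.05. At 1 to 10 CPM there were 738, of which 117 had a p under 0.05. The median size of the log2 change was 0.10 in the most abundant class and 0.51 under 1 CPM, where the median standard error was 0.96.

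The direction of the small changes went with transcript length. Among transcripts averaging 1 CPM or more, the median log2 change was 0.12 for the 950 under 500 bases and 0.09 for the 3860 of 500 to 1000 bases. It was 0.03 at 1000 to 2000 bases, -0.05 at 2000 to 4000 and -0.05 at 4000 bases or more. Short transcripts were thus slightly higher, and long ones slightly lower, in mutants.

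At an unadjusted p under 0.05, 42 of the transcripts under 500 bases were higher and 8 lower, whereas 75 of those of 4000 bases or more were higher and 205 lower. Without wild-type embryo 4 at 14 somites the medians were 0.08 under 500 bases and -0.03 at 4000 bases or more. The slope of an embryo's log2 levels on log2 length, relative to the other embryos of its somite number, ran from -0.072 to 0.033 in mutants and from -0.109 to 0.237 in wild type, where embryo 4 at 14 somites had the highest. The slopes overlapped between the genotypes and did not pass the exact permutation test (p = 0.200, two-sided, adjusted p = 0.423). The part of length in the counts of higher and lower transcripts was not tested.

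Since no gene was named, the 2 transcripts lower and the 2 higher in mutants with the smallest p are given by identifier. They were picked by these p, so their levels describe the data and carry no evidence beyond them. None of the 4 passed the adjustment in edgeR's test, and all 4 did in DESeq2. Their CPM values were scaled over all 27 embryos.

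The smallest p of all belonged to ENSMUST00000102781.9, a transcript of 4906 bases that was lower in every mutant. At 12 somites its level was 66.8, 64.2, 65.1 and 70.4 CPM in the wild-type embryos and 43.0 and 56.1 CPM in the mutants. At 13 somites it was 68.1, 69.1, 75.7 and 73.2 CPM in wild type and 52.0 and 57.5 CPM in mutants. At 14 somites it was 60.4, 63.3, 69.6 and 64.1 CPM in wild type and 47.2 and 51.9 CPM in mutants. The highest mutant, at 13 somites, lay below the lowest wild-type embryo, at 14 somites, so the 6 and the 12 did not overlap.

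The pooled log2 fold change of ENSMUST00000102781.9 was -0.40 (SE 0.058, interval -0.52 to -0.27, adjusted p 0.134 in edgeR's test). The change was alike at the single somite numbers, -0.42 at 12, -0.38 at 13 and -0.38 at 14 somites. Reads assigned to it numbered 1034 to 2184 per library. Its adjusted p was under 0.05 in 4 of 15 other alternatives and in 0 of the 18 fits that left out an embryo. Besides DESeq2 the 4 were limma voom (0.0494) and 2 edgeR fits. Of these 2, that of transcripts averaging 1 CPM or more gave 0.0415, and that of all 27 embryos gave 0.00896. Over the 18 fits that left out an embryo the adjusted p ran from 0.0702 to 0.606, and over the 15 from 4.68e-10 (DESeq2) to 1.00 (no embryos of 13 somites).

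ENSMUST00000000095.6, of 3626 bases, was the other lower transcript. In wild type its lowest, median and highest levels were 2.18, 2.92 and 4.71 CPM, and in mutants 0.953, 1.41 and 2.01 CPM. The groups did not overlap, the lowest mutant being at 14 somites and the highest at 13. The log2 fold change was -1.12 (SE 0.19, adjusted p 0.443 in edgeR's test), and it was -1.02, -1.14 and -1.21 at 12, 13 and 14 somites. In DESeq2 the adjusted p was 2.84e-06, the only one under 0.05 among 15 alternatives, over which it reached 1.00, and without 1 embryo it ran from 0.138 to 0.907. The transcript is low, with 27 to 136 reads per library, and among the wild-type embryos its highest levels were those of embryos 1 and 3 at 13 somites, 4.37 and 4.71 CPM.

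Of the higher transcripts, ENSMUST00000053768.13, of 4553 bases, had the smallest p. Its lowest, median and highest levels were 16.2, 20.9 and 25.9 CPM in wild type and 25.0, 28.5 and 31.9 CPM in mutants. In 5 of the 6 mutants it lay above every wild-type embryo, and mutant embryo 2 at 12 somites, at 25.0 CPM, lay within the wild-type range. The log2 fold change was 0.45 (SE 0.088, adjusted p 0.529 in edgeR's test), and it was 0.45, 0.53 and 0.37 at 12, 13 and 14 somites. DESeq2 gave an adjusted p of 0.000957, under 0.05 in that alternative only of 15 (up to 1), and leaving out 1 embryo gave 0.269 to 0.907.

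ENSMUST00000020215.15, of 2222 bases, stood at 42.7, 57.7 and 64.9 CPM (lowest, median, highest) in wild type and at 65.1, 77.2 and 88.1 CPM in mutants. All 6 mutants lay above all 12 wild-type embryos, by a margin at 12 somites so small that 5 of 6 did when the values were scaled over the 18 embryos alone. The lowest wild-type level was that of embryo 4 at 14 somites. The log2 fold change was 0.41 (SE 0.083, adjusted p 0.529 in edgeR's test). Here too DESeq2 alone of the 15 alternatives passed, with an adjusted p of 0.000957 (the highest was 1), and without 1 embryo edgeR's ran from 0.0973 to 0.907. The fitted change was 0.16 at 12, 0.49 at 13 and 0.58 at 14 somites, but a test of whether it differed between somite numbers gave an unadjusted p of 0.0967 and an adjusted p of 1 in edgeR, so this order did not pass the test.

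**Figure D3:**
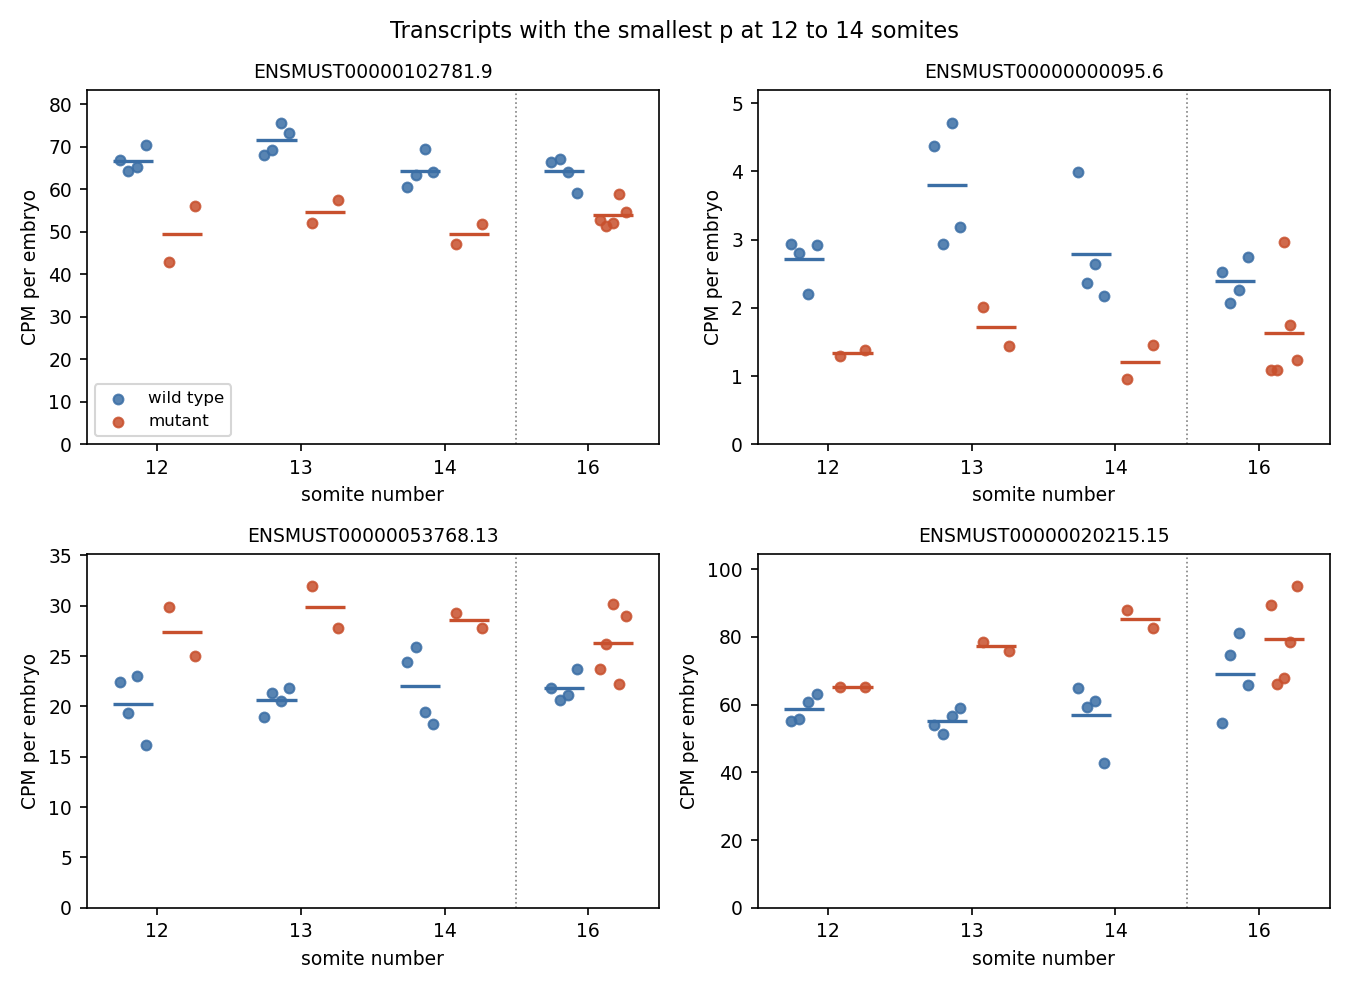
Each point is the level of a transcript in 1 embryo, in CPM scaled over 27 embryos, by somite number, with wild type in blue and mutants in orange and horizontal lines at the group means. To the left of the dotted line are the embryos of 12 to 14 somites, where all 6 mutants lay beyond every wild-type embryo in 3 of the 4 panels, and to the right those of 16 somites, which were not used to pick the transcripts.

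A gap between the groups of this kind was rare, and how many would arise if no transcript differed was not tested. All 6 mutants lay above all 12 wild-type embryos for 7 transcripts (0.0162% of those tested) and below them for 5 (0.0115%), or for 5 and 5 when the values were scaled over the 18 embryos alone. The 7 had log2 fold changes from 0.28 to 1.68 and adjusted p from 0.529 to 0.943 in edgeR's test. The 5 lower ones had changes from -3.19 to -0.40 and adjusted p from 0.134 to 0.775. Their mean levels were between 1.08 and 77.0 CPM.

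The contrast was then made at each somite number, with the spread shared over the 6 groups of genotype and somite number. In edgeR's test 2 transcripts (0.00462%) had an adjusted p under 0.05 at 12 somites, 1 (0.00231%) at 13 and 2 (0.00462%) at 14 somites, all lower in mutants. Before adjustment 1719, 1557 and 1376 transcripts had a p under 0.05, fewer than the 2166 expected if none differed. DESeq2 called 304, 261 and 197. When only the embryos of that somite number were fitted, 1, 0 and 0 were called, none of them among the 5, and with the embryo number as a block 0, 1 and 1. The count at 12 somites was 5 without wild-type embryo 1 of that somite number, 6 without embryo 2 and 4 without embryo 4, and that at 14 somites was 4 without wild-type embryo 3.

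All 5 transcripts had 0 reads in both mutants of the somite number at which they were called and reads in each of the other 16 embryos of 12 to 14 somites. The transcript called at 13 somites, of 8943 bases, averaged 3.64 ± 0.837 CPM (SD, n = 4) among the wild-type embryos of that number and stood at 2.51 to 4.66 CPM in the 4 mutants of 12 and 14 somites. The wild-type mean was 30.2-fold above a floor of 3 reads in each mutant library of 13 somites (an allowance for counting error alone). This fold leaves out the spread of the wild-type embryos, of which the lowest stood at 2.74 CPM. No read was assigned to the transcript in either mutant of 13 somites, while all other mutants had it.

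At 14 somites the 2 transcripts, of 5192 and 1125 bases, averaged 2.17 ± 0.868 and 1.42 ± 0.711 CPM (SD, n = 4) among wild-type embryos. These means were 20.1-fold and 13.2-fold above the floor in the mutants, and the lowest wild-type levels were 1.04 and 0.852 CPM. At 12 somites those of 888 and 4098 bases averaged 2.06 ± 1.22 and 1.05 ± 0.163 CPM (SD, n = 4) in wild type. Here the means were 15.7-fold and 7.96-fold above the floor, and the lowest wild-type levels were 0.991 and 0.867 CPM. Both transcripts called at 12 somites were also at 0 in 1 mutant of 16 somites. The pooled effect of the 5 had adjusted p from 0.955 to 0.999. A read count of 0 was common even at these levels, since of the 24308 transcripts averaging 1 CPM or more, 3696 had no read in 1 or more of the 18 embryos. In single embryos 626 to 886 of them were at 0 in wild type and 675 to 952 in mutants. The deposited counts are estimates, and whether a value of 0 arose in their estimation was not tested.

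**Figure D4:**
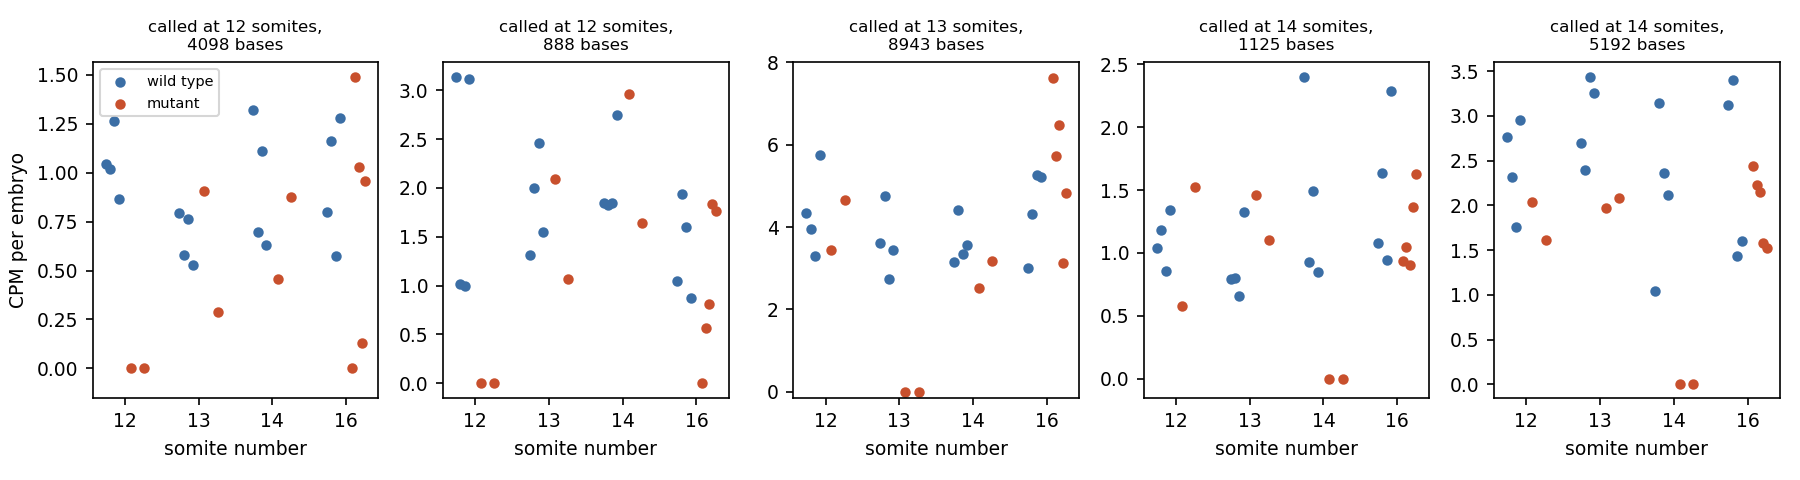
Each panel is 1 of the 5 transcripts called at a single somite number and each point its level in 1 embryo, in CPM, by somite number, with wild type in blue and mutants in orange. In each panel both mutants of the somite number in its title are at 0, while the other mutants of 12 to 14 somites lie between 0.287 and 4.66 CPM.

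Whether the genotype effect changed from 12 to 14 somites was tested with both interaction terms together. edgeR called 2 transcripts (0.00462%), those of 8943 and 5192 bases described above, with adjusted p of 0.000296 and 0.00616. At an unadjusted p under 0.05 there were 1329. The block for the embryo number left 1 call, and DESeq2 called 34. The count was 6 without wild-type embryo 2 at 12 somites, 4 without embryo 1 and 5 without embryo 3 of that group, and 4 without wild-type embryo 3 at 14 somites.

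The embryos of 16 somites, 4 wild-type and 5 mutant, share no library with those above and so give a separate reading of each change. A fit of these 9 embryos alone tested 31283 transcripts, called 0 and had 1263 at an unadjusted p under 0.05, where 1564 would be expected if none differed. ENSMUST00000102781.9 was again lower, at 54.0 ± 3.01 CPM (SD, n = 5) in mutants and 64.2 ± 3.59 CPM (SD, n = 4) in wild type, with all 5 mutants below all 4 wild-type embryos. Its log2 fold change at 16 somites was -0.23 (SE 0.069, unadjusted p 0.00795, adjusted p 0.985 in edgeR's test).

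The other 3 had the same direction at 16 somites as before, with ranges that overlapped between the genotypes. ENSMUST00000000095.6 had a log2 difference of -0.54 (SE 0.36), and in mutants it ran from 1.09 to 2.96 CPM. ENSMUST00000053768.13 had a value of 0.28 (SE 0.11, unadjusted p 0.0329 in edgeR), and ENSMUST00000020215.15 one of 0.22 (SE 0.15). None of the 3 passed the adjustment in edgeR's test (adjusted p 0.985). In all 4 the change was larger at 12 to 14 than at 16 somites, which is where the transcripts were picked, and the difference did not pass the test in edgeR (unadjusted p from 0.134 to 0.238, adjusted p 1.00).

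The same look-up was made for all 55 transcripts that averaged 1 CPM or more and had a p under 0.001 at 12 to 14 somites, 17 higher and 38 lower in mutants. At 16 somites 47 of them (85.5%) had the same sign, against 60.2% of the 23912 transcripts of that level tested in both. An unadjusted p under 0.05 with the same sign was found for 13 of the 55 (23.6%), against 3.58% of all. Among the 17 higher transcripts 8 had one, and among the 38 lower ones 5. The median change in the direction seen before was 0.22 log2 units at 16 somites, while its median size at 12 to 14 somites was 0.64. These shares are a description over transcripts, which are not independent of each other: transcripts of one gene, or of one length class, can move together.

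**Figure D5:**
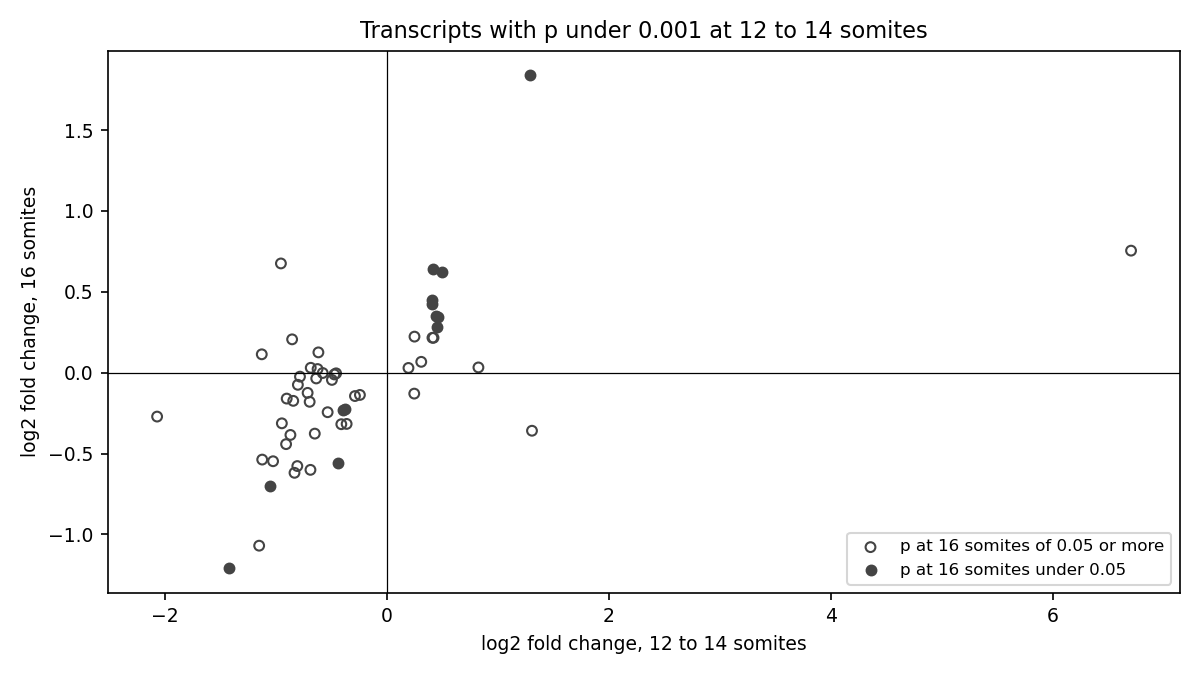
Each point is 1 of the 55 transcripts averaging 1 CPM or more with a p under 0.001 at 12 to 14 somites, with its log2 fold change there on the horizontal axis and in the separate embryos of 16 somites on the vertical axis. Of the 55, 47 lie in the quadrants of equal sign, and filled points, 13 in all, had an unadjusted p under 0.05 at 16 somites.

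A direct test of whether the mean genotype effect at 12 to 14 somites differed from that at 16 somites, in 1 fit of 27 embryos, called 2 of 45394 transcripts (0.00441%). They were the transcripts of 8943 and 5192 bases that had 0 reads in both mutants of 13 or 14 somites, with adjusted p of 0.000332 and 0.0311 in edgeR's test. At 16 somites the first stood at 3.12 to 7.62 CPM in mutants and 3.00 to 5.26 CPM in wild type. Before adjustment 1881 transcripts had a p under 0.05, where 2270 would be expected if none differed, and DESeq2 called 187. Leaving out 1 wild-type embryo or 1 mutant of 16 somites gave between 1 and 3 calls. The count was 1 without mutant embryo 1, 2 or 3 or wild-type embryo 4 at 16 somites. It was also 1 without wild-type embryo 1, 2 or 4 at 12 or embryo 3 or 4 at 13 somites. Fits without a mutant of 12 to 14 somites left 1 mutant in its group, which loosened the filter to 51022 to 51259 transcripts tested. Their counts are not comparable and are not given.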

How the data were processed

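Per the file headers, the authors deposited for each embryo an estimated count of reads, a TPM value (relative abundance per length), a length and an effective length for 117135 transcripts. The submitters' processing notes name Salmon 1.5.2, Trim Galore 0.5.0 and DESeq2 1.46.0, without roles. The annotation release and strandedness are not given in the sources used here. Of the deposited estimated counts above 0, 11.3% were whole.

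Groups came from the sample titles. Embryos are the replicates, and any 2 of a group differed by more than counting error alone (chi-square per degree of freedom at least 13.7). This measure does not cover the error of estimated counts, so it cannot show how much repeat sequencing of 1 library would differ. The plan summed transcripts to genes, but this and a covariate for sex could not be run without gene names. Counts were rounded and fitted in R 4.3.3 with edgeR 4.0.16 (filterByExpr on the groups, TMM factors, quasi-likelihood tests, Benjamini-Hochberg adjustment over all transcripts tested). Each standard error was the absolute log2 change divided by the root of its F. Alternatives used DESeq2 1.42.0 and limma 3.58.1, the latter also on the deposited TPM values with a pseudocount of 1. Correlations used log2 CPM with a prior count of 2. The procedure was also run on counts simulated from edgeR's own fit, which cannot show whether that fit suits the deposited estimates. Transcripts given by identifier are the 2 higher and 2 lower with the smallest p. The comparison, its lists and its alternatives were chosen with earlier results of these data known. Figures used matplotlib 3.10.9.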

Additional observations from a re-analysis of the deposited data

Results flagged for a closer look

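In 41 comparisons of an embryo with its group of 4 or 5 (7 measures of the libraries and 4 transcripts), 2 set an embryo apart, and chance alone does so in about 1 in 20. Wild-type embryo 4 at 14 somites had 0.281% of its reads in transcripts too low to test, against 0.152% to 0.160% in the other 3. Wild-type embryo 3 at 12 somites had 2.21 CPM of ENSMUST00000000095.6, against 2.81 to 2.93 CPM in the other 3, and still lay above all 6 mutants.

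The genotype effect differed with somite number for 2 transcripts in edgeR's tests. That of 8943 bases had an adjusted p of 0.000296 for the interaction within 12 to 14 somites and 0.000332 for the difference from 16 somites. For that of 5192 bases these were 0.00616 and 0.0311. Both were at 0 in the 2 mutants of one somite number and present in the other 25 embryos.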

How the results depend on the processing

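The alternatives limma on log2(TPM + 1), the robust fit and the other thresholds of the look-up at 16 somites (83.1% of 337 transcripts with p under 0.01 and 86% of the 100 with the smallest p had the same sign) were chosen after seeing the data. The pooled count of 0 was also 0 with RLE factors, library totals only, no filter, the robust fit, other or no treatment of somite number, a block for the embryo number, and without the embryos of any 1 somite number. It was 1 when only transcripts averaging 1 CPM or more were tested, 2 in limma on log2(TPM + 1), 4 in limma voom, 7 with all 27 embryos in 1 fit and 125 in DESeq2. DESeq2 gave 304, 261 and 197 at 12, 13 and 14 somites, and 34 and 187 for the interaction and the difference from 16 somites. Fits on the embryos of that somite number only gave 1, 0 and 0 (879 to 1803 at an unadjusted p under 0.05), where fewer embryos set the spread. Apart from fewer transcripts or embryos, the cause was not tested. No pairing by embryo number was seen: deviations of same-numbered embryos had a correlation of -0.117 to 0.044 in 6 pairs, and 1 of 6 mutants was most like its own number. With 2 mutants per somite number these pairs are few, and a shared litter or batch was not tested. The block gave 0 calls pooled, 0, 1 and 1 at 12, 13 and 14 somites, and 1 each for the interaction and the difference. At 12 to 14 somites the mutants had embryo numbers 1 and 2 only, so the block compared them mainly with wild-type embryos 1 and 2. Leaving out 1 embryo gave 0 to 1 calls pooled (1 without wild-type embryo 4 at 14 somites), 3 to 6 at 12, 1 to 1 at 13 and 2 to 4 at 14 somites, and 2 to 6 for the interaction. For the difference it gave 1 to 3, apart from the fits without a mutant of 12 to 14 somites, which left 1 mutant in a group. For the effects at single somite numbers and the interaction only wild-type embryos were left out. Sums over genes and a covariate for sex were not run. The 4 transcripts given by identifier kept their direction in all 33 alternatives each. Under 1 CPM the interval of most transcripts reached beyond a 2-fold change, and the part of depth in this was not tested.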
